A study of Mus musculus with 16 samples.

Results

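The change in gene expression from day 0 to day 6 of fat cell differentiation was followed in mouse preadipocytes that had first been exposed to interleukin-13 (IL-13). The libraries were chosen by their labels: 4 libraries of day 0 and 4 of day 6, all IL-13 pre-treated, out of 16 in the series. The cells were an immortalized line of preadipocytes, wild type, from the strain C57Bl6/J, with no engineered allele named. IL-13 had been given for 16 h before day 0. The other 8 libraries held the same line left untreated, with 4 at day 0 and 4 at day 6, and serve below as the comparison. The sources used here do not give the differentiation medium or say whether the line is 1 clone. Each library was made with the Illumina TruSeq stranded mRNA kit from 2 ug of total RNA, isolated with spin columns. The labels do not tell whether the 4 libraries of a group stem from separate cultures, and the p-values therefore reflect no more than the spread among these libraries, which may be technical. Each day has its own deposited table, so the day of differentiation cannot be told apart from anything else that differed between the 2 harvests.

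Preadipocytes are fibroblast-like precursor cells that divide, spread on a collagen-rich matrix and hold contractile actin fibres. When they differentiate, the nuclear receptor PPARgamma (Pparg) and the factor C/EBPalpha (Cebpa) switch on genes for lipid uptake, triglyceride synthesis and storage in lipid droplets, and the actin fibres and the fibrillar matrix are taken down. IL-13 is a cytokine of type 2 immunity that signals by way of the receptor chains Il4ra and Il13ra1, the JAK kinases and the transcription factor Stat6, with Cish and Socs1 as feedback inhibitors.

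The IL-13 libraries held 15499583 to 18112087 counts each, with 15447 to 15718 genes that had at least 1 count. Levels are given as CPM, counts relative to the library total, scaled by edgeR over all 16 libraries, and group values are means ± SD with n = 4 libraries. The median SD of log2 CPM per gene was 0.102 at day 0 and 0.15 at day 6. Replicates 1 and 3 of day 6 stood furthest from their group: they held the highest or lowest value of the 4 in 67.6% and 64.9% of 9178 genes, against 34.8% and 32.7% for replicates 2 and 4. Because the samples are bulk RNA, a shift in the share of cells of one kind cannot be told apart from a change in RNA per cell.

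Most of the measured transcriptome changed. Of 13157 genes tested with edgeR's quasi-likelihood test and Benjamini-Hochberg adjustment, 10637 (80.8%) passed an adjusted p under 0.05, 5337 of them higher at day 6 (40.6%) and 5300 lower (40.3%). A change of at least 2-fold was found for 5142 genes (39.1%), 2725 of them higher (20.7%) and 2417 lower (18.4%), and one of at least 16-fold for 525 (3.99%) and 333 (2.53%). The median log2 fold change over all genes tested was 0.00. In 9835 genes (74.8%) no library of one day overlapped the range of the other day. The counts of any gene group below are to be read against these shares.

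Several genes with no count before differentiation reached high levels at day 6. Cd36, the fatty acid translocase of the plasma membrane (chr5:17781690-17888801 in GRCm38, the assembly also called mm10), had no count in any day 0 library and 2849.6, 2549, 2764 and 2587 CPM in the 4 day 6 libraries. Against a limit of 3 counts over the 4 day 0 libraries, this is at least 58235-fold higher. The same bound was at least 13969-fold for Cfd, the complement factor adipsin, at least 7042-fold for Retn, the adipokine resistin, and at least 5456-fold for Adig, an adipocyte membrane protein. All 4 genes therefore went from no detected count to a mean of 252 CPM or more. Others with no count at day 0 were Mmd2 (323 ± 42.1 CPM at day 6), the amino acid transporter Slc36a2 (272 ± 20.2 CPM) and Pck1 (74.1 ± 7.44 CPM), which supplies glycerol 3-phosphate for triglycerides. In all, 106 genes had 0 counts in the 4 day 0 libraries and at least 1 CPM on average at day 6, 75 of them with a proper gene name. Car3, a carbonic anhydrase abundant in fat, rose from 4 counts in all 4 day 0 libraries to 1316 ± 118 CPM, a log2 fold change of 14.22 ± 0.18 (± SE, edgeR adjusted p = 7.91e-21). The SE comes from the F statistic of the test against no change. For the day change of genes with few counts on one day, here and below, it understates the uncertainty of the fold.

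Genes that were well expressed at day 0 and fell to a trace at day 6 had various roles. Serpinb1a, an intracellular inhibitor of neutrophil serine proteases, lay at 295, 254, 266 and 273 CPM in the day 0 libraries and at 0.124, 0.062002, 0.134 and 0.117 CPM at day 6, a log2 fold change of -11.19 ± 0.18 (edgeR adjusted p = 9.63e-22). Il1rl1, the interleukin-33 receptor, had 176, 181, 172 and 168 CPM at day 0 and 0.0618, 0.062002, 0.267 and 0 CPM at day 6. In both genes every day 0 library lay far above every day 6 library. Both fell further than in untreated cells, with log2 differences of -7.31 for Serpinb1a and -2.36 for Il1rl1, as given below. Apob, the apolipoprotein of very low density lipoprotein, had 7109 counts at day 0 and 3 at day 6, a scaled ratio of 2348 (95% exact interval 803 to 11391). Plxna4, a semaphorin co-receptor, had 3490 and 2 counts, a ratio of 1729 (95% exact interval 478 to 14286), and the cadherin Cdh3 had 2833 and 3, a ratio of 936 (95% exact interval 319.9 to 4541). Cartilage collagen Col2a1 fell from 71.9 ± 10.6 to 0.1102 ± 0.0827 CPM and the hyaluronan-degrading Cemip from 51.6 ± 4.62 to 0.0613 ± 0.0477 CPM. Only 23 genes had at least 1 CPM on average at day 0 and no count in any day 6 library. The most abundant of these was Col6a5, a collagen VI chain, with 11.98, 9.304, 7.12 and 13.6 CPM at day 0, which is at least 226-fold lower at day 6.

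**Figure D1:**
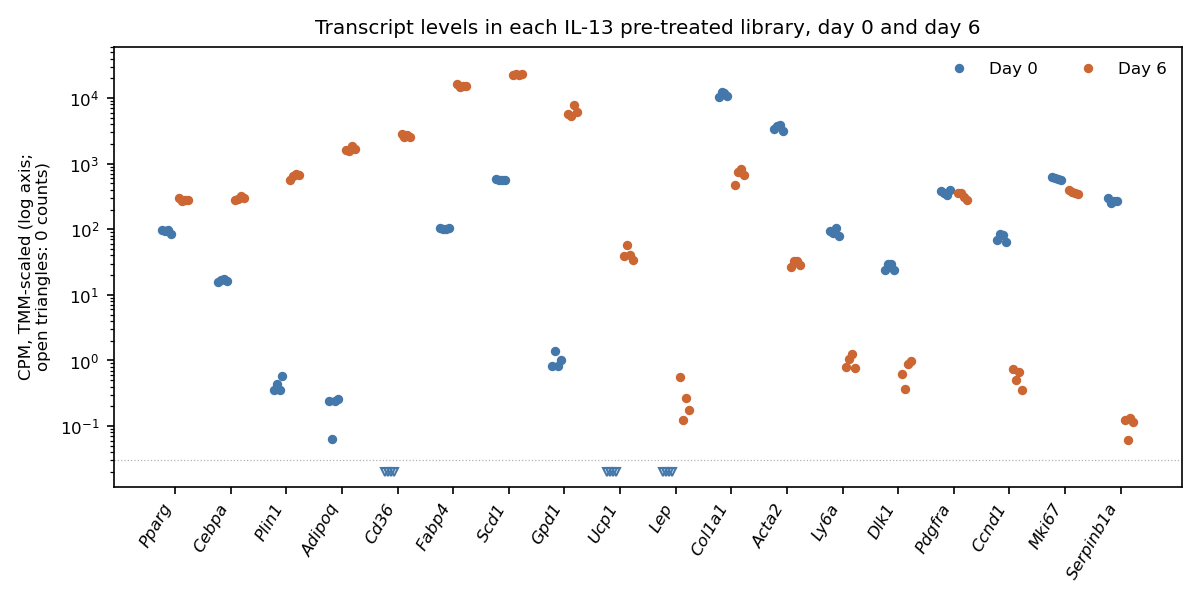
CPM of single genes in each of the 4 day 0 and 4 day 6 IL-13 pre-treated libraries, on a log axis; each point is 1 library, and open triangles below the dotted line stand for libraries with 0 counts. The points of the 2 days overlap for Pdgfra and lie apart for the other genes drawn.

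Markers of fat cells were high in every day 6 library. All 11 tested members of the adipocyte marker list were higher at day 6, and the summed level of the list went from between 235 and 255 CPM at day 0 to between 22339 and 24258 CPM. Lep, the satiety hormone leptin and the remaining member, had 0 counts at day 0 and 0.556, 0.124, 0.267 and 0.175 CPM at day 6, too few counts to be tested. All 7 tested preadipocyte markers were lower, with a summed level of 823 to 850 CPM at day 0 and 294 to 375 CPM at day 6. Pdgfra, a growth factor receptor of mesenchymal precursors, made up most of that sum at day 6: it lay at 388, 357, 334 and 399 CPM at day 0 and 361, 351, 306 and 279 CPM at day 6. Its 2 groups overlapped, and its log2 fold change of -0.19 ± 0.08 (edgeR adjusted p = 0.0464) lost its call with DESeq2, without the filter on low counts, with the 8 libraries alone and in 5 of the leave-one-out fits. Markers of other cells summed to lower levels than the adipocyte markers on both days. The summed leukocyte markers were 9.46 to 11.98 CPM at day 0 and 3.52 to 4.71 CPM at day 6, with Adgre1, Cd3e and Tyrobp at 0 in all libraries. Their 5 tested members did not move alike: 3 fell and 2 rose, with log2 fold changes from -7.50 to 3.75. Fcer1g had 3 counts at day 0 and 46 at day 6. Endothelial markers summed to 33.3 to 40.6 CPM and then 3.55 to 4.55 CPM, with Cldn5 and Tie1 at 0. Skeletal muscle markers summed to 5.88 to 9.26 CPM and then 15.9 to 24.7 CPM, and the myogenic factors Myod1 and Myf5 were at 0; the rise was in Des, which went from 2.95 ± 0.8798 to 18.4 ± 3.33 CPM. Bone and cartilage markers summed to 89.5 to 113 CPM at day 0 and 56.5 to 73.7 CPM at day 6. This sum hid opposite moves. Of 5 tested, 4 fell, Col2a1 the furthest with a log2 fold change of -9.27, and 1 rose with 7.29. Epithelial markers summed to 4.67 to 6.82 CPM and then 8.16 to 16.6 CPM, and their 2 tested members moved apart. Krt18 fell by 5.57 and Krt19 rose by 1.54 on the log2 scale.

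Transcription factors that drive adipocyte formation rose almost throughout. Of 24 adipogenic factors tested, 21 were higher and 1 lower, with a median log2 fold change of 1.59. Pparg lay at 95.996, 95.4, 98.3 and 84.4 CPM at day 0 and at 296, 269.7, 281 and 282 CPM at day 6, a log2 fold change of 1.59 ± 0.06 (edgeR adjusted p = 6.33e-16), and Cebpa at 15.8, 16.8, 17.7 and 16.1 and then 276, 287, 324 and 304 CPM, a log2 fold change of 4.16 ± 0.07 (edgeR adjusted p = 4.2e-21). In both genes the days did not overlap, and the rise of Cebpa was the steeper. The lipogenic sterol-response factor Srebf1 rose from 76.9 ± 4.06 to 661 ± 100.1 CPM, the oxysterol receptor Nr1h3 from 3.11 ± 0.585 to 96.4 ± 15.6 CPM, and the fatty acid receptor Ppara from 0.573 ± 0.172 to 66.3 ± 9.22 CPM. Mlxipl, the glucose-sensing factor ChREBP, went from no count to 57.6 ± 7.95 CPM, at least 1248-fold higher. Rxra, the obligate partner of these receptors, did not pass the test at 125 ± 10.5 and 121 ± 14.2 CPM, whereas its relative Rxrg rose from 0.5501 ± 0.2502 to 34.1 ± 3.72 CPM. The only lower member was Klf4, an early factor of the program, with 112, 113, 106 and 106 CPM at day 0 and 3.83, 5.39, 3.34 and 5.83 CPM at day 6.

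Regulators that hold cells in the precursor state moved mostly the other way. Of 21 anti-adipogenic regulators tested, 14 fell and 5 rose, with a median log2 fold change of -1.13. Dlk1, the membrane protein known as Pref-1, fell from 26.9 ± 2.92 to 0.712 ± 0.275 CPM, and the factors Gata2, Sox9 and Zfp521 fell by 3.88, 3.79 and 2.93 on the log2 scale. The 5 that rose included Foxo1, the insulin-restrained forkhead factor, from 36.000 ± 1.43 to 132 ± 10.4 CPM, and Irf4, from 0.644 ± 0.178 to 16.4 ± 3.17 CPM.

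Genes of lipid storage showed some of the widest ranges in the data. Of 17 lipid droplet proteins tested, 15 rose and 1 fell, with a median log2 fold change of 2.75. Plin1, the perilipin that guards the droplet of mature fat cells, had 0.359, 0.443, 0.356 and 0.575 CPM at day 0 and 564, 640.1, 699.9 and 680.4 CPM at day 6, a log2 fold change of 10.53 ± 0.12 (edgeR adjusted p = 2.37e-23). Cidec, which fuses droplets, had 0.2395, 0.253, 0.178 and 0.128 and then 1471, 1548, 1960.000 and 1850.2 CPM. Both genes went from a trace at day 0 to a high level in all 4 day 6 libraries. The perilipins did not move alike: Plin5 rose from 0.0309 ± 0.0358 to 51.1 ± 10.1 CPM, Plin2 from 151 ± 7.36 to 1515 ± 33.8 CPM and Plin4 from 406 ± 14.3 to 676 ± 12.8 CPM, while Plin3 fell from 116 ± 5.36 to 80.8 ± 8.796 CPM. The seipin gene Bscl2 and the droplet-budding gene Fitm2, both of the endoplasmic reticulum, rose by 3.25 and 3.84 on the log2 scale.

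Transcripts of genes for fatty acid uptake and triglyceride synthesis mostly rose with them. Of 17 uptake and binding genes tested, 12 rose and 4 fell (median log2 fold change 2.83), and of 24 synthesis genes tested 23 rose and 1 fell (3.81). Fabp4, the fatty acid binding protein of fat cells, lay at 106, 99.6, 101 and 104 CPM at day 0 and 16219, 14982, 15334 and 15471 CPM at day 6, a log2 fold change of 7.24 ± 0.09 (edgeR adjusted p = 6.31e-23). Lipoprotein lipase, Lpl, lay at 272, 256, 262 and 270.3 and 6089, 5329, 5585 and 5756 CPM. Both were thus already well expressed in the precursors, unlike Cd36. The desaturase Scd1 held the highest CPM of the named lipid genes, with 591, 563, 560.2 and 569.8 CPM at day 0 and 22734, 23379, 22325 and 23285 CPM at day 6. Gpd1, which makes glycerol 3-phosphate, rose from 1.02 ± 0.263 to 6255 ± 1008 CPM, and fatty acid synthase, Fasn, from 669 ± 52.8 to 5525 ± 976 CPM. Members of an enzyme family did not all move alike. The elongase Elovl3 had 3 counts at day 0 and 46545 at day 6, a scaled ratio of 15655 (95% exact interval 5357 to 75915), whereas Elovl6 fell from 78.4 ± 4.34 to 32.9 ± 3.17 CPM as the only lower member of the synthesis list. Of the acyl-CoA synthetases, Acsl1 rose from 35.3 ± 2.64 to 3843 ± 119.7 CPM, Acsl5 fell from 147 ± 8.89 to 107 ± 12.3 CPM, and Acsl3 did not pass the test at 59.3 ± 2.16 and 60.1 ± 5.76 CPM. Fabp3, the heart-type binding protein, fell from 7.89 ± 0.259 to 1.55 ± 0.403 CPM. The lipoprotein receptor Lrp1 also fell by 1.79 on the log2 scale, while its relative Vldlr rose by 3.96.

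**Figure D2:**
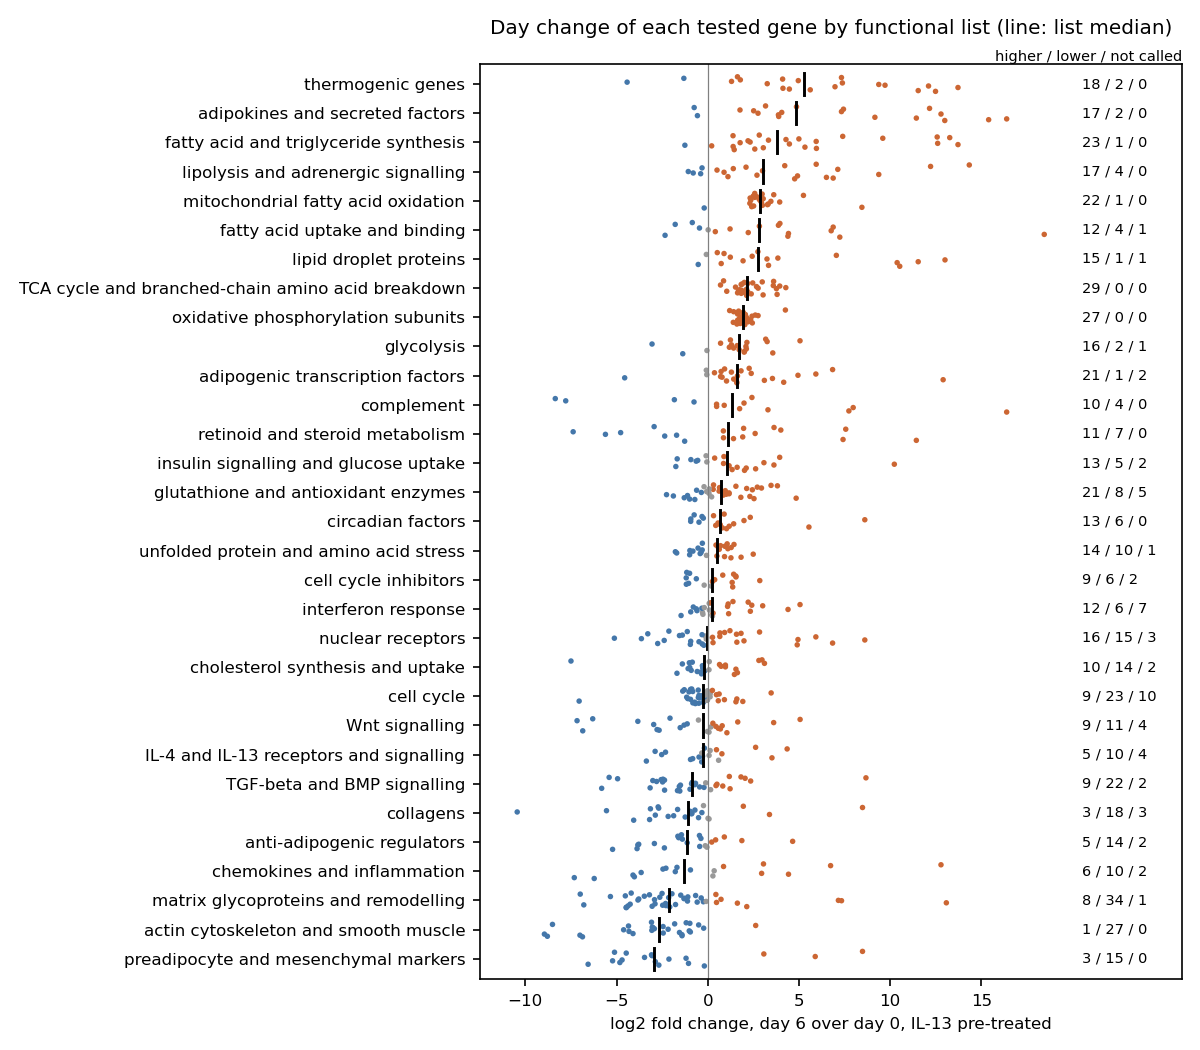
Log2 fold change of each tested member of the main gene lists, day 6 over day 0 in IL-13 pre-treated libraries, with the list median as a bar and the counts of members higher, lower and not called at the right. Fitted values of genes with no count on one day depend on the prior count of the fit and are no bounds; the medians of the fatty acid, lipolysis and lipid droplet lists lie to the right of 0, and those of the matrix and actin lists to the left.

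Transcripts of genes for the release of stored lipid and its hormonal control also mostly rose. Of 21 lipolysis and adrenergic genes tested, 17 rose and 4 fell, with a median log2 fold change of 3.00. The 3 lipases that act in sequence on triglycerides all rose: Pnpla2 from 38.6 ± 4.29 to 1049.8 ± 120.4 CPM, Lipe from 10.9 ± 0.145 to 1286 ± 159 CPM and Mgll from 6.69 ± 0.387 to 609 ± 41.05 CPM. Adrb3, the beta-adrenergic receptor typical of rodent fat, had 0, 0, 0 and 0.0639 CPM at day 0 and 11.9, 13.02, 17.4 and 18.4 CPM at day 6. Several genes that restrain lipolysis rose as well. Adora1, the inhibitory adenosine receptor, went from no count to 156 ± 5.295 CPM, at least 3373-fold higher, and Hcar2 and Hcar1, receptors for ketone bodies and lactate, reached 35.7 ± 6.26 and 173 ± 6.33 CPM. Pde3b, the phosphodiesterase through which insulin lowers cAMP, rose from 2.44 ± 0.539 to 343 ± 21.8 CPM. Gnas, the stimulatory G protein, was among the 4 that fell, from 1524 ± 118 to 726 ± 48.9 CPM.

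In insulin signalling, 13 of 20 tested genes rose and 5 fell, with a median log2 fold change of 1.03. Slc2a4, the insulin-responsive glucose transporter GLUT4, had 0.2395, 0.1899, 0 and 0.192 CPM at day 0 and 189, 182, 196 and 208 CPM at day 6, a log2 fold change of 10.23 ± 0.16 (edgeR adjusted p = 6.44e-22). Its days did not overlap. The ubiquitous transporter Slc2a1 rose less, from 52.9 ± 1.45 to 96.2 ± 13.1 CPM. The insulin receptor Insr rose from 41.1 ± 3.25 to 166 ± 18.3 CPM while the related Igf1r fell from 48.1 ± 4.76 to 14.999 ± 2.25 CPM. A like contrast held between the kinases Akt2, which rose from 132 ± 8.65 to 296 ± 27.6 CPM, and Akt1, which fell from 352 ± 37.3 to 105 ± 12.01 CPM. In glycolysis, 16 of 19 tested genes rose and 2 fell (median 1.72). There the hexokinase Hk2 rose from 15.2 ± 3.05 to 179 ± 20.02 CPM and Hk1 fell from 303 ± 17.2 to 117 ± 20.3 CPM. The muscle-type enolase Eno3 fell by 3.06 on the log2 scale, and the general enolase Eno1 rose by 1.30.

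Secreted factors rose in 17 of 19 tested cases, with a median log2 fold change of 4.86. Adiponectin, Adipoq, lay at 0.2395, 0.0633, 0.237 and 0.255 CPM at day 0 and 1621, 1582, 1883 and 1685 CPM at day 6, a log2 fold change of 12.99 ± 0.14 (edgeR adjusted p = 8.33e-24). Retinol binding protein, Rbp4, had 0, 0, 0.178 and 0.0639 CPM and then 162, 235, 174 and 193 CPM. Both were near absent at day 0 in every library. Leptin remained at a trace in comparison, as given above. The protease inhibitor Cst3 was among the 2 members that fell, from 199 ± 15.6 to 119 ± 21.6 CPM. The complement system, whose alternative pathway fat cells supply, gave 10 higher and 4 lower genes of 14 tested. Its core component C3 rose from 8.93 ± 2.11 to 1905 ± 179.8 CPM alongside Cfd, and Cfb had 3 counts at day 0 and 867 at day 6, a ratio of 292 (95% exact interval 99.5 to 1417). Masp1, a protease of the lectin pathway, went from 255 ± 5.56 down to 1.15 ± 0.162 CPM. The C1q chains C1qa, C1qb and C1qc had no count in any of the 16 libraries.

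The promoters of Rbp4 and Lep are shown because they carry the same C/EBP letters and the 2 genes ended at very different levels. The sequences are those of RefSeq on GRCm38.p6 and run from 250 bases before to 50 after the start of the gene, in the direction of transcription, with the match to TTGCNNAA on either strand in capitals.
Rbp4, chr19:38124762-38125061, minus strand: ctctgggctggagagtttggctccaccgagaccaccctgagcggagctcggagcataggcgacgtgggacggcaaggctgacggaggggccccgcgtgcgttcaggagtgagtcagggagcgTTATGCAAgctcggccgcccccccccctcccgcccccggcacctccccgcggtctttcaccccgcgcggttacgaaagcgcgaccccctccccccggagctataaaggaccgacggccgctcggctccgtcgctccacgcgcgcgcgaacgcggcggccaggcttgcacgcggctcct
Lep, chr6:29059971-29060270, plus strand: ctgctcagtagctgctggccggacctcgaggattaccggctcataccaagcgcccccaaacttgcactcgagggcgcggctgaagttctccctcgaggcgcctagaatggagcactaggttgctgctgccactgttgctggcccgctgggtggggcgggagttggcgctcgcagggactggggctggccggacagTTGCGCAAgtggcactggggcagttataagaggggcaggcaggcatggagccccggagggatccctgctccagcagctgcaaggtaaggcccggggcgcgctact
The match lay 128 bases before the start in Rbp4 and 55 bases before it in Lep. Rbp4 reached 191 ± 31.8 CPM and Lep 0.281 ± 0.193 CPM at day 6. Of the 22 promoters found for 18 of the 22 adipokine genes, 4 held the letters (18.2%), against 10.8% of all 32851 promoters in the table and 8.49% of the 12961 that belonged to tested genes. The direct repeat that PPARgamma and its RXR partner bind (DR1, a consensus with 1 spacer base, on both strands) was found in 0 of 23 promoters of lipid droplet genes and in 0.381% of all promoters.

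Genes of heat production rose in 18 of 20 tested cases, with a median log2 fold change of 5.29. Ucp1, the uncoupling protein of brown fat, had no count at day 0 and 39.3, 58.2, 40.6 and 34.6 CPM at day 6, at least 935-fold higher. Cidea and Cox8b, also markers of brown fat, went from no count to 22.3 ± 6.22 and 33.1 ± 5.599 CPM, and the brown fat factor Prdm16 rose from 2.44 ± 0.508 to 42.5 ± 1.296 CPM. The coactivator Ppargc1a stayed low at 1.12 ± 0.3198 CPM, while its relative Ppargc1b reached 45.3 ± 3.599 CPM. Zic1, a factor of classical brown fat, had no count in the 8 IL-13 libraries, and Dio2, the deiodinase that activates thyroid hormone, had 0.0155 ± 0.031001 CPM. Tmem26, used as a beige surface marker, fell from 126 ± 7.04 to 5.86 ± 0.5801 CPM. Ckb, the creatine kinase of creatine-driven heat production, fell as well, from 40.5 ± 4.05 to 16.3 ± 3.27 CPM, and these were the 2 lower members.

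Nearly all mitochondrial genes tested in the pathways listed were higher at day 6. All 27 respiratory chain subunits tested were higher, each by at least 2-fold, with a median log2 fold change of 1.91, and all 29 genes of the citric acid cycle and of branched-chain amino acid breakdown were higher, with a median of 2.13. The narrowest rise among the subunits was Atp5c1 with 1.20 and the widest the electron carrier cytochrome c, Cycs, with 4.26. Cycs lay at 54.7, 50.3, 40.2 and 48.2 CPM at day 0 and 907, 975, 991 and 825 CPM at day 6. In the cycle, pyruvate carboxylase, Pcx, rose most, from 109 ± 5.99 to 2122 ± 268 CPM, followed by Bckdhb, a subunit of the branched-chain ketoacid dehydrogenase, from 6.504 ± 0.462 to 100.4 ± 4.13 CPM. Fatty acid oxidation had 22 of 23 genes higher and 1 lower (median 2.88). Isozymes of the entry step moved in opposite directions: Cpt1b, the muscle and brown fat form, rose from 0.774 ± 0.213 to 272 ± 19.98 CPM, and Cpt1a, the only lower member, fell from 124 ± 3.09 to 108 ± 6.11 CPM.

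The precursor and mesenchymal genes fell together. Of 18 tested, 15 fell and 3 rose, with a median log2 fold change of -2.96. Ly6a, the stem cell antigen Sca-1, lay at 94.3, 88.8, 104 and 79.5 CPM at day 0 and 0.804, 1.05, 1.27 and 0.758 CPM at day 6, and Thy1 at 265, 267, 279 and 256 and 8.65, 11.9, 11.1 and 9.44 CPM. Vim, the intermediate filament of mesenchymal cells, fell from 2800.4 ± 327 to 330.1 ± 33.9 CPM. The 3 that rose were the surface peptidase Mme, from 9.93 ± 1.47 to 83.7 ± 7.65 CPM, the ectonucleotidase Nt5e, from 0.156 ± 0.109 to 9.57 ± 0.689 CPM, and the collagen Col15a1, described below.

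Collagens and other matrix genes were mostly lower at day 6. Of 24 tested collagen chains of the collagen list, 18 fell, 3 rose and 3 did not pass (median log2 fold change -1.10). Of 43 genes in the list of other matrix genes 34 fell, 8 rose and 1 did not pass (-2.14). Taken by symbol, 32 collagen genes were tested, of which 23 fell and 6 rose. Col1a1, the main chain of fibrillar collagen I, lay at 10447, 12222, 12052 and 10695 CPM at day 0 and 465, 747, 843 and 665 CPM at day 6, a log2 fold change of -4.06 ± 0.18 (edgeR adjusted p = 2.58e-13). Fibronectin, Fn1, fell from 11060.3 ± 298 to 499 ± 91.9 CPM, and the collagen cross-linker Lox from 3716 ± 128 to 269.9 ± 16.03 CPM. The fibrillar chain Col3a1 did not pass the test, at 1226 ± 182 and 1287 ± 156 CPM, nor did Col4a1 of the basement membrane, at 1656 ± 49.6 and 1672 ± 243 CPM. The 3 collagens of the list that rose were Col15a1, Col18a1 and the fibrillar chain Col5a3, the last with a log2 fold change of 3.38 ± 0.09. Outside the list, Col26a1, Col11a2 and Col20a1 also rose, by 5.26, 2.66 and 2.43 on the log2 scale. Col15a1 rose from 1.68, 1.33, 1.899 and 1.85 CPM to 534, 693, 609 and 597 CPM, and Col18a1, its relative, from 58.8 ± 3.09 to 227 ± 39.4 CPM. The laminin chain Lama4 had 1 count in the 4 day 0 libraries and 12738 at day 6, a ratio of 12853 (95% exact interval 2306 to 507703). Decorin, Dcn, rose from 0.603 ± 0.258 to 97.99 ± 12.6 CPM and lumican, Lum, from 0.2005 ± 0.167 to 29.7 ± 1.52 CPM, whereas the related biglycan, Bgn, fell from 5760.4 ± 458 to 406 ± 23.97 CPM. The matrix-cutting Mmp14 fell from 867 ± 26.1 to 140.2 ± 8.32 CPM and the inhibitor Timp1 from 149 ± 16.1 to 3.69 ± 0.243 CPM.

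Contractile genes fell almost without exception. Of 28 actin and smooth muscle genes tested, 27 fell and 1 rose (Des, above), with a median log2 fold change of -2.69. Acta2, smooth muscle actin, lay at 3328, 3744, 3899.5 and 3102 CPM at day 0 and 26.5, 32.6, 32.8 and 28.6 CPM at day 6, a log2 fold change of -6.87 ± 0.14 (edgeR adjusted p = 1.01e-19), and calponin, Cnn1, at 168, 186, 204 and 166 and 0.371, 0.31001, 0.267 and 0.466 CPM. For both genes the 2 days lay far apart in all 8 libraries. Cytoplasmic beta-actin, Actb, fell less, from 2788 ± 204 to 1049 ± 144 CPM. Of the upstream factors, Srf fell from 26.8 ± 2.65 to 18.9 ± 4.02 CPM and its coactivator Myocd from 14.1 ± 0.634 to 0.0322 ± 0.0372 CPM.

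The cell cycle genes did not move as a unit. Of 42 tested, 23 fell, 9 rose and 10 did not pass, with a median log2 fold change of -0.25. Cyclin D1, Ccnd1, which carries growth factor signals into the cycle, lay at 69.4, 84.998, 81.2 and 65.1 CPM at day 0 and 0.742, 0.496, 0.668 and 0.3496 CPM at day 6, a log2 fold change of -7.05 ± 0.17 (edgeR adjusted p = 1.57e-18). Its relative Ccnd2 rose from 456 ± 15.3 to 680.3 ± 37.8 CPM, and Ccnd3 did not pass the test at 94.9 ± 7.21 and 91.4 ± 11.7 CPM. The mitotic genes Cdc20 and Plk1 were lower but well above 0: Cdc20 fell from 114, 119.9, 114 and 110.1 CPM to 48.03, 40.4, 43.8 and 44.4 CPM, and Plk1 from 88.1, 101, 96.8 and 85.6 to 37.6, 42.7, 50.5 and 43.3 CPM. The proliferation marker Mki67 lay at 622, 598, 577 and 561 CPM at day 0 and 402, 369, 355 and 347 CPM at day 6. The days did not overlap in any of these 3, and Mki67 remained abundant in every day 6 library. Among the 9 that rose were cyclin E, Ccne1, from 26.7 ± 2.52 to 77.8 ± 7.86 CPM, Ccne2 from 19.99 ± 0.4896 to 75.7 ± 11.6 CPM and E2f2 from 2.82 ± 0.517 to 31.4 ± 2.97 CPM. The genes of the replicative helicase were split, as Mcm3, Mcm4, Mcm5 and Mcm6 fell by 0.17 to 0.48 on the log2 scale and Mcm2 and Mcm7 did not pass. Cdk1 did not pass either, at 196 ± 2.08 and 193 ± 10.4 CPM.

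Inhibitors of the cycle were mixed, with 9 higher, 6 lower and 2 not called of 17. The CDK inhibitor Cdkn1a rose from 118 ± 4.57 to 304 ± 25.9 CPM, Cdkn2c from 51.4 ± 1.78 to 130.04 ± 8.95 CPM and the retinoblastoma gene Rb1 from 19.9 ± 1.36 to 144 ± 17.2 CPM. Trp53 fell from 117 ± 5.83 to 52.8 ± 2.05 CPM, and Cdkn2a and Cdkn2b fell by 1.18 and 1.05 on the log2 scale.

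**Figure D3:**
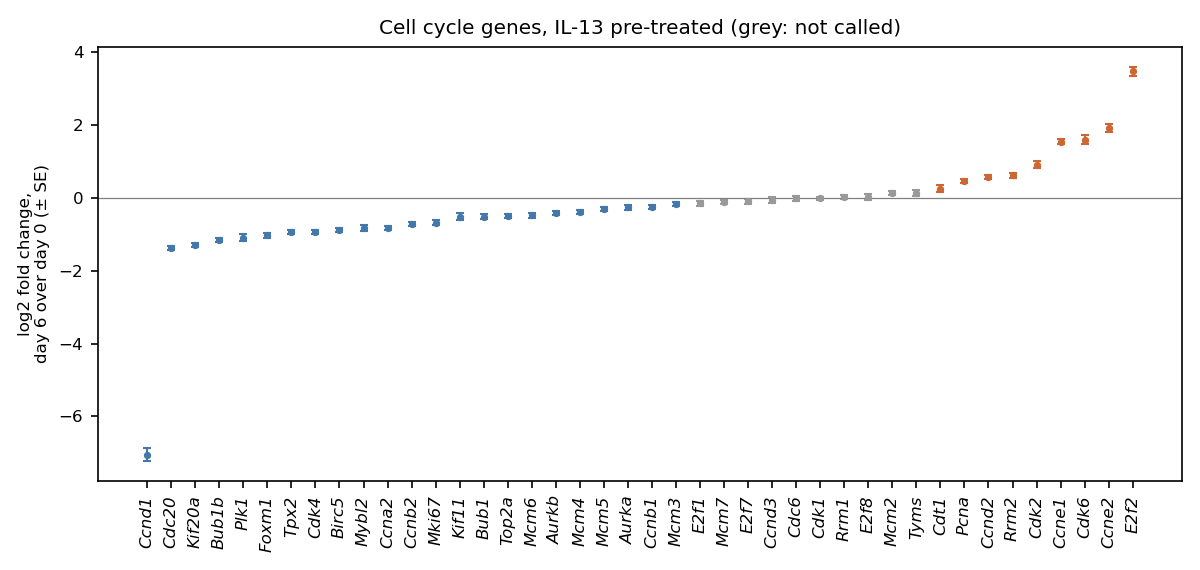
Log2 fold change with its SE for the 42 tested cell cycle genes, day 6 over day 0 in IL-13 pre-treated libraries, in order of the change. Ccnd1 lies far below the rest, most mitotic genes lie a little below 0, and E2f2 and Ccne2 lie highest.

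The promoters of the mitotic genes Cdc20 and Plk1 are shown because both genes fell and both hold the letters of the cell cycle homology region (TTTGAA) and of the CCAAT box (CCAAT). The sequences cover the same RefSeq window as above, and the capitals mark matches to either set of letters on either strand.
Cdc20, chr4:118437294-118437593, minus strand: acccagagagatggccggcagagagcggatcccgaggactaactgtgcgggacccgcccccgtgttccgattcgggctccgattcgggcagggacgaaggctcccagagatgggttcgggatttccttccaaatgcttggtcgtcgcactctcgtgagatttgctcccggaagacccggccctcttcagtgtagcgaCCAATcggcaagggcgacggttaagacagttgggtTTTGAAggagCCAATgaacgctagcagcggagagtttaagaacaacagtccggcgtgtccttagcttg
Plk1, chr7:122159185-122159484, plus strand: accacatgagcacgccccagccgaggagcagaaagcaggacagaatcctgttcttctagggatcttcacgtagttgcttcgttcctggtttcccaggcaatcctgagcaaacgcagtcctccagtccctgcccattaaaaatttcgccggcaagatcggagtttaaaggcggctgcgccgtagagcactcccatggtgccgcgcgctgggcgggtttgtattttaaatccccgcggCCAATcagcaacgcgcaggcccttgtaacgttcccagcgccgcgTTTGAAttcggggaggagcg
The TTTGAA match began 18 bases before the start in Cdc20 and lay 31 bases after it in Plk1. In the 36 promoters found for 33 cell cycle genes, TTTGAA was present in 12 (33.3%), against 17.9% of all promoters and 12.1% of those of tested genes, and CCAAT in 26 (72.2%), against 37.4% and 38.1%. Of the 12 genes with TTTGAA, 8 fell and 1 rose (median log2 fold change -0.51), and of the 21 without it 8 fell and 6 rose (-0.09). Of the 24 genes with CCAAT, 13 fell and 4 rose (-0.21), and of the 9 without it 3 fell and 3 rose (-0.02). Neither split was tested. The E2F letters GGCGGGAA were found in 2 of the 36 promoters (5.56%), against 2.19% of all promoters and 3.91% of those of tested genes. The motifs do not overlap one another in the 2 sequences shown.

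Wnt and TGF-beta signals restrain fat cell formation, and their genes were mixed. Of 24 Wnt genes tested, 11 fell, 9 rose and 4 did not pass, with a median log2 fold change of -0.27. The secreted Wnt binder Sfrp2 fell from 247 ± 11.3 to 1.73 ± 0.617 CPM, its relative Sfrp1 went from 220.5 ± 4.43 down to 15.5 ± 2.06 CPM, and the receptor Fzd1 from 300.3 ± 16.1 to 47.3 ± 2.26 CPM. The antagonist Dkk2 rose from 0.539 ± 0.1297 to 18.2 ± 1.27 CPM, and the Wnt target Axin2 from 0.0934 ± 0.0808 to 1.22 ± 0.235 CPM. In the TGF-beta and BMP list, 22 of 33 fell, 9 rose and 2 did not pass (median -0.89). The activin subunit genes Inhba and Inhbb fell by 5.82 and 3.16 on the log2 scale, the latent binding protein Ltbp1 by 4.94 and the ligand Tgfb3 by 2.37. Gdf10 rose from 8.18 ± 0.482 to 28.95 ± 3.93 CPM and the activin binder Fst from 0.71002 ± 0.305 to 3.64 ± 0.988 CPM.

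Both chains of the signalling IL-13 receptor, Il13ra1 and Il4ra, were lower at day 6 after IL-13. Il13ra1, the signalling chain, lay at 8.38, 8.61, 9.37 and 9.13 CPM at day 0 and 0.865, 1.24, 0.735 and 0.583 CPM at day 6, a log2 fold change of -3.37 ± 0.16 (edgeR adjusted p = 3.92e-14). Its partner Il4ra had 87.9, 82.1, 89.4 and 85.1 and 62.4, 73.2, 71.1 and 66.9 CPM. Both pairs of groups stood apart, narrowly for Il4ra, which at day 0 was higher after IL-13 than in untreated cells and rose over the 6 days in the latter, as given below. The decoy receptor Il13ra2 lay at 0.4598 ± 0.158 and 0.702 ± 0.142 CPM. Stat6 fell from 179 ± 7.02 to 147 ± 5.32 CPM, Jak1 from 393 ± 19.7 to 204 ± 12.4 CPM and Jak2 from 95.3 ± 3.41 to 53.7 ± 3.296 CPM. The feedback inhibitor Cish fell from 71.9 ± 4.25 to 9.72 ± 0.907 CPM, and Socs1 was lower too, at 2.72 ± 0.566 and then 0.462 ± 0.185 CPM. Ptpn6, a phosphatase of cytokine receptors, rose from 0.6001 ± 0.0287 to 12.4 ± 1.08 CPM. Of the 19 genes of the list tested, 10 fell, 5 rose and 4 did not pass.

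Untreated cells changed in much the same way over the 6 days. Of the same 13157 genes, 10590 (80.5%) were called in untreated cells, 5465 higher (41.5%) and 5125 lower (39.0%). These libraries are separate from the IL-13 libraries, and the log2 changes of the 2 comparisons had a Pearson r of 0.959 across the genes, which share libraries and are not independent replicates. The difference between the 2 changes was tested directly, as IL-13 pre-treated minus untreated, and was called in 1061 genes (8.06%), positive in 410 (3.12%) and negative in 651 (4.95%). That split of 38.6% positive was 50.9% with total count scaling, 48.9% with upper quartile scaling and 51.1% with DESeq2 and 53.9% without the filter on low counts. A difference of at least 2-fold was called in 272 genes (2.07%), 72 positive (0.547%) and 200 negative (1.52%).

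The called differences lay mainly in where the cells began. The 1061 genes were chosen because the distance between IL-13 and untreated cells changed between the days. The values below hold for these genes, and those over all genes tested are not given. In 983 of the 1061 genes (92.6%) the IL-13 and untreated groups differed more at day 0 than at day 6, with a median absolute log2 difference of 0.61 at day 0 and 0.12 at day 6. In 768 genes the 2 changes were both called in the same direction, and in 72 they were called in opposite directions. Of the latter, 55 rose in untreated cells and fell after IL-13, and 17 did the reverse. For RNAs that are held in the nucleus, a list that includes Malat1 and Neat1, the summed level was 2453 to 2698 CPM at day 0 and 2268 to 3135 CPM at day 6 after IL-13, and 2823 to 3821 and 3386 to 4734 CPM without it. The sum was thus lower after IL-13 on both days. This list was chosen from earlier results of these libraries, so its direction is not independent evidence. The difference of the day change was called in 0 of its 24 tested members with edgeR and with DESeq2 (2 had an unadjusted p under 0.05 with either tool) and in 2 with a replicate block. Over all genes tested it was called in 8.06% with edgeR.

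The group that rose without IL-13 and fell after it included acute phase serpins, a chemokine and collagen VI. Serpina3g, an inhibitor of serine and cysteine proteases, lay at 242, 221, 256 and 247 CPM at day 0 and 10.01, 10.8, 11.2 and 9.26 CPM at day 6 after IL-13, and at 1.38, 2.401, 2.24 and 1.87 and then 6.82, 8.85, 9.83 and 6.78 CPM in untreated cells. The change was -4.55 ± 0.10 after IL-13 and 2.04 ± 0.15 without it on the log2 scale, a difference of -6.59 ± 0.18 (edgeR adjusted p = 1.62e-15). At day 0 the IL-13 and untreated libraries lay far apart, and at day 6 their ranges overlapped. Serpina3c and Serpina3n, of the same gene cluster, had differences of -5.59 ± 0.23 and -6.36 ± 0.30. Ccl11, the eosinophil attractant eotaxin, went from 17.1 ± 2.04 to 0.986 ± 0.566 CPM after IL-13 and from 0.0837 ± 0.03202 to 1.12 ± 0.373 CPM without it, a difference of -7.72 ± 0.52 (edgeR adjusted p = 1.81e-09). Col6a1, a chain of the collagen VI network around fat cells, lay at 6938, 6901, 7286 and 6568 CPM at day 0 and 3049, 3936, 4196 and 3765 CPM at day 6 after IL-13. Without it, Col6a1 lay at 1877, 1939, 2352 and 1993 and 3006, 3111, 3527 and 3347 CPM, so that the level fell in one course and rose in the other, to ranges that overlapped at day 6. Its difference was -1.56 ± 0.13 (edgeR adjusted p = 4.06e-08), that of Col6a2 was -1.86 ± 0.14, and Col6a3 gave no called difference (0.04 ± 0.10, edgeR adjusted p = 0.884). The receptor chain Il4ra belonged here too, with 32.4 ± 2.23 CPM at day 0 and 60.5 ± 4.91 CPM at day 6 in untreated cells and a difference of -1.23 ± 0.10 (edgeR adjusted p = 1.37e-08).

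**Figure D4:**
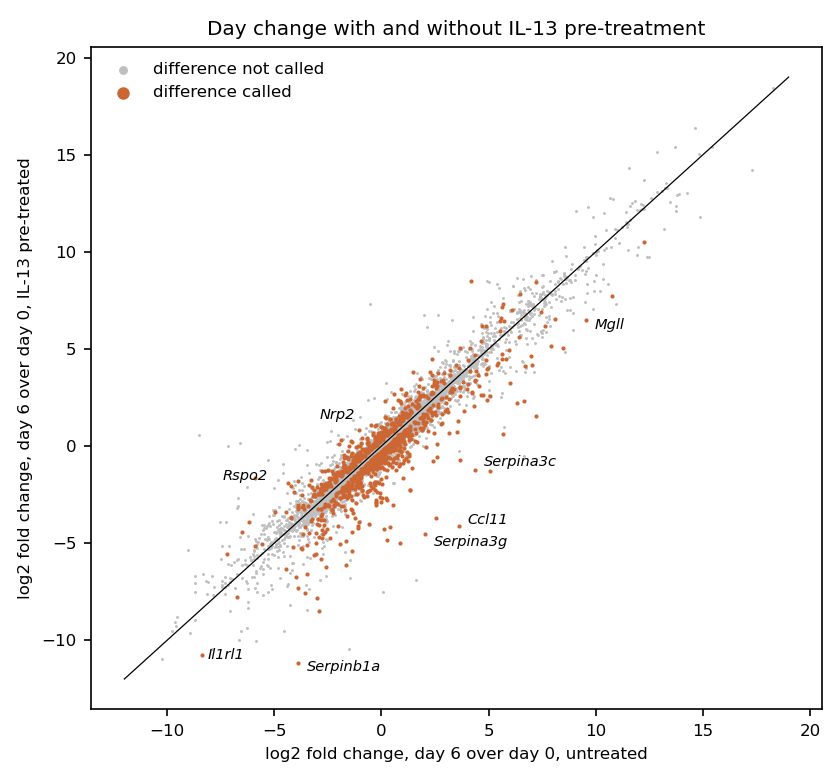
Log2 change from day 0 to day 6 of each tested gene in untreated cells (x axis) and in IL-13 pre-treated cells (y axis), with the 1061 genes whose difference was called in colour. Most genes lie along the diagonal, and Serpina3g, Serpinb1a and Ccl11 lie far below it; fitted values of genes with no count on one day are no bounds.

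A further set fell in both courses and further after IL-13. Aif1l, an actin-binding protein, fell from 243 ± 10.7 to 8.14 ± 0.682 CPM after IL-13 and from 15.9 ± 2.09 to 5.09 ± 0.192 CPM without it, a difference of -3.26 ± 0.13. Enpp3, an ectonucleotidase, had a difference of -2.96 ± 0.12, and Serpinb1a one of -7.31 ± 0.96 (edgeR adjusted p = 2.12e-05) with only 7 counts in the 4 IL-13 libraries of day 6. Daglb, a diacylglycerol lipase, and Rnf19b and Xdh moved little in untreated cells, with log2 changes of -0.26, -0.31 and -0.12, of which that of Xdh was not called. Xdh, xanthine dehydrogenase, lay at 389 ± 20.4 CPM at day 0 after IL-13, at 106 ± 7.48 CPM at day 0 without it, and at 104 ± 3.301 and 97.9 ± 3.65 CPM at day 6. The list of 26 genes that IL-13 raised at day 0 was chosen from these libraries, so its direction is not independent evidence. Of it, 22 fell and 4 rose to day 6, with a median log2 fold change of -4.15. The 4 that rose were Pparg, Pnpla2, Tgm2 and Hlf. Il13ra2, the decoy receptor, had 0.4598 ± 0.158 CPM at day 0 and 0.702 ± 0.142 CPM at day 6 after IL-13, and in untreated cells it had no count at day 0 and 0.367 ± 0.191 CPM at day 6.

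Some fat cell genes rose by unequal amounts in the 2 courses. Pparg began at 62.1, 62.4, 65.4 and 61.2 CPM in untreated cells, below the IL-13 range given above, and ended at 261, 261, 276 and 299.7 CPM, so that its rise after IL-13 differed by -0.53 ± 0.08 on the log2 scale from that of untreated cells (edgeR adjusted p = 0.000151). Mgll, the monoacylglycerol lipase, began at 0.768, 0.985, 0.518 and 0.642 CPM without IL-13 and 6.35, 6.65, 7.24 and 6.52 CPM after it, and ended at 572, 509.6, 572 and 540.4 and 581, 582, 668 and 604 CPM, a difference of -3.04 ± 0.16 (edgeR adjusted p = 2.8e-11). The day 0 groups of both genes did not overlap, and at day 6 the ranges overlapped for Pparg but stayed apart for Mgll, which was higher after IL-13. Negative differences were also called for Plin1 (-1.71), Pnpla2 (-0.85), Lipe (-0.55) and Pcx (-1.15), and positive ones for Cebpa (0.70), Lpl (0.40) and Cpt1b (1.22). Plin1 was at a trace at day 0 after IL-13, so its difference rests on few counts. Aldh1a7, an aldehyde dehydrogenase, lay at 99.5, 95.3, 107 and 101 CPM at day 0 after IL-13 against 15.5, 15.3, 14.7 and 14.1 CPM without it, and rose in both, with a difference of -2.48 ± 0.07. No difference was called for Adipoq (-0.90 ± 0.52, edgeR adjusted p = 0.445), Fabp4 (0.15 ± 0.10, 0.447), Scd1 (0.04 ± 0.10, 0.866), Slc2a4 (0.75 ± 0.49, 0.446) or Acsl1 (0.01 ± 0.09, 0.981). These SEs are wide for Adipoq and Slc2a4, which had few counts at day 0, and narrow for Fabp4, Scd1 and Acsl1.

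**Figure D5:**
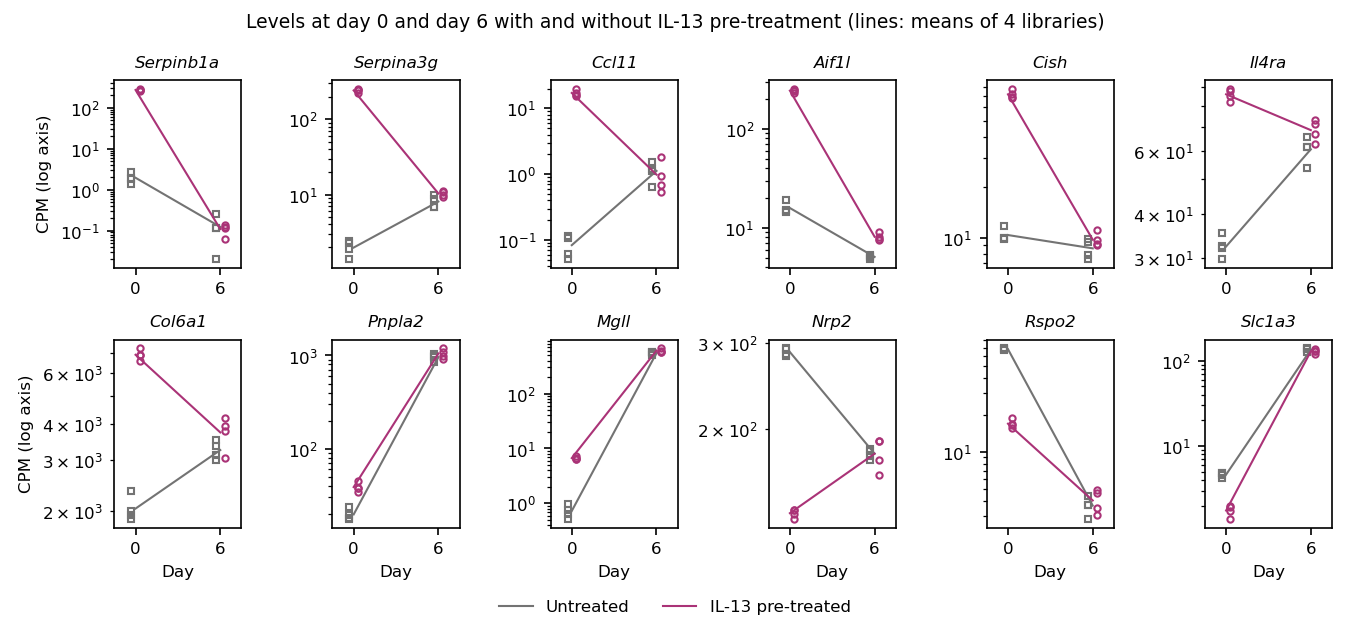
CPM of 12 genes in every library at day 0 and day 6, untreated (grey squares) and IL-13 pre-treated (purple circles), on log axes; lines join the means of 4 libraries and a value of 0 is drawn at 0.02 CPM. In each of these genes the group means are closer together on the log axis at day 6 than at day 0.

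Genes with positive differences, chosen by the adjusted p of the difference, are described by their levels in the 4 groups. Nrp2, a receptor of semaphorins and growth factors, lay at 134, 137, 131 and 137 CPM at day 0 and 189.5, 189, 161 and 173 CPM at day 6 after IL-13, and fell from 284, 291, 292 and 282 to 182, 176, 181 and 173 CPM without it. The course was a rise in one case and a fall in the other, a difference of 1.09 ± 0.07 (edgeR adjusted p = 1.9e-09). Rspo2, a Wnt enhancer, fell in both, from 16.9 ± 1.38 to 4.01 ± 0.898 CPM after IL-13 and from 67.95 ± 1.08 to 3.64 ± 0.618 CPM without it, a difference of 2.14 ± 0.18. Gas2 had a difference of 1.45 ± 0.13, the glutamate transporter Slc1a3 of 1.33 ± 0.13 and Mme of 1.34 ± 0.13. In these 3 genes the day 0 mean was lower after IL-13: Slc1a3 began at 1.75 ± 0.258 CPM against 4.62 ± 0.2798 CPM without it, and Mme at 9.93 ± 1.47 against 25.04 ± 1.73 CPM.

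Cholesterol genes were mixed. Of 26 tested, 14 fell, 10 rose and 2 did not pass after IL-13, with a median log2 fold change of -0.22. The synthesis enzymes Mvk, Cyp51 and Fdft1 fell by 1.69, 1.08 and 0.91 on the log2 scale, while Hmgcs1 rose from 125 ± 7.29 to 345 ± 36.3 CPM and the sterol sensor Insig1 from 115 ± 11.4 to 992 ± 98.8 CPM. The efflux transporters Abca1 and Abcg1 rose by 2.80 and 2.97. The difference from untreated cells was called positive in 9 of the 26 and negative in 1, Abcg1 (-0.69 ± 0.18). Over all genes tested it was positive in 3.12% and negative in 4.95%, a split that changed with the scaling, as given above. Hsd17b7 rose from 45.99, 45.1, 43.1 and 42.8 to 78.4, 72.5, 69.7 and 72.95 CPM after IL-13 and lay at 75.5, 70.01, 69.97 and 72.4 and 71.9, 70.5, 76.5 and 67.1 CPM without it, so that again the day 0 levels stood apart and those of day 6 overlapped.

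Retinoid and steroid genes were mixed. Of 18 tested, 11 rose and 7 fell, with a median log2 fold change of 1.14. Aldh1a1, Aldh1a2 and Aldh1a3, enzymes that make retinoic acid, fell. Aldh1a1 went from 52.8 ± 3.41 to 10.3 ± 1.28 CPM, Aldh1a2 from 3.28 ± 0.483 to 1.01 ± 0.411 CPM and Aldh1a3 from 20.1 ± 0.637 to 0.408 ± 0.275 CPM. Their relative Aldh1a7 rose, as given above. The retinol saturase Retsat rose from 44.4 ± 2.92 to 551 ± 54.01 CPM, and Hsd11b1, which regenerates active glucocorticoid, from 2.74 ± 0.635 to 44.1 ± 3.504 CPM. The difference from untreated cells was called negative in 7 of the 18, Aldh1a1, Aldh1a2 and Aldh1a3 included, and positive in 2. The shares over all genes tested were 4.95% and 3.12%. Among the 34 nuclear receptors tested, 16 rose and 15 fell. The vitamin D receptor Vdr fell from 46.2 ± 2.99 to 1.33 ± 0.205 CPM and the retinoic acid receptor Rarg from 91.3 ± 4.63 to 13.6 ± 1.57 CPM.

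Levels of different genes were compared with the deposited TPM values, which account for length. At day 0 the highest gene was the translation factor Eef1a1 with 20823 TPM, followed by mitochondrially encoded genes (mt-Co1, mt-Atp6, mt-Co3 and mt-Co2) and the galectin Lgals1 with 11487 TPM. At day 6 the first was mt-Atp6 with 25874 TPM, and 2 lipid genes had entered the 10 highest: Scd1 at rank 5 with 13855 TPM and Fabp4 at rank 8 with 10089 TPM. The rank of Fabp4 rests on the length used. The deposited values imply a length of 4703 bases for it, and with 1 GENCODE transcript of 896 bases it would come first with 34283 TPM. The 10 highest genes took 12.4% ± 0.426 (SD, n = 4) of the TPM at day 0 and 13.8% ± 0.878 at day 6, a difference that was not tested, and the 100 highest took 37.8% on both days.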

How the data were processed

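RNA-seq of 16 libraries was analysed from 2 deposited tables, 1 for each day, of 41325 genes each. Per the file headers, the authors deposited raw total counts, RPKM, TPM and CPM for each library. The deposited CPM had sums that differed between libraries, so they were recorded as a score and not used; CPM in the text were computed from the counts with TMM-scaled library sizes. Counts were used for every test, and the deposited TPM only for levels between genes; the deposited RPKM served to work out the length behind each value. The build was mm10, per the submitters' processing notes, and the aligner, counter and strand setting were not given in the sources used here, so overlapping and antisense genes may share reads.

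All 16 libraries were fitted with edgeR 4.0.16 (R 4.3.3; TMM scaling, filterByExpr with a minimum count of 10 and a total of 15, robust quasi-likelihood fit, 1 mean per group), and genes with a Benjamini-Hochberg adjusted p under 0.05 were called. SEs were taken from the F statistic, and those of the day change understate the uncertainty of folds that rest on few counts on one day. Alternatives were DESeq2 1.42.0, 2 other scalings, no filter, 8 libraries, a replicate block, a 2-fold test and leaving out each library. The scripts were tested on simulated data. Library depths were 15253031 to 18112087 counts, and no 2 libraries agreed within sampling noise (the lowest chi-square per degree of freedom was 3.82).

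The members and the gene lists were chosen with earlier results of these data known. Genes named by rule were the 12 largest called changes in each direction that had no overlap and averaged 1 or more in log2 CPM, up to 4 members of each list by p, in each direction the 8 differences of lowest adjusted p, the 6 most abundant genes without counts on 1 day in each direction, the 10 highest TPM of each day and a panel of 35. Other list members named were chosen after their values were seen. Of 957 list entries for 879 genes, 4 symbols (Ddit3, Atp5o, Aldoa and Trarg1) were not matched. Some genes that these rules named are not reported here.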

Additional observations from a re-analysis of the deposited data

Results flagged for a closer look

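Groups of 4 libraries were looked at for 68 genes, for the total counts and for the summed RNAs held in the nucleus. Groups with 4 equal values were left out. Of the 128 groups that remained, 4 held 1 library far from the other 3 (3.13%), where chance alone gives about 1 in 20. Cdh3 had no count in replicate 1 of day 6 after IL-13 (0 CPM), against 0.0583 to 0.0668 CPM in the other 3. Adipoq lay at 0.0633 CPM in replicate 2 of day 0 after IL-13, against 0.237 to 0.255 CPM. Both values are of a few counts at most. Aldh1a7 lay at 585 CPM in replicate 4 of day 6 after IL-13, against 616 to 619.8 CPM, and Gas2 at 18.7 CPM in replicate 2 of day 0 after IL-13, against 22.0 to 22.5 CPM.

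The change from day 0 to day 6 differed between IL-13 pre-treated and untreated cells, by the edgeR test of the difference itself, in 29 of the 68 genes. The 68 included up to 8 genes in each direction that were picked because this difference was called. The 29 therefore do not show how common such differences are, and over all 13157 genes tested the share was 8.06%. As log2 differences (IL-13 minus untreated), the genes of cytokine response and inflammation gave -7.72 for Ccl11, -2.62 for Cish, -1.68 for Socs1, -1.23 for Il4ra, -2.36 for Il1rl1 and -1.07 for Masp1. The serpins gave -7.31 for Serpinb1a, -6.59 for Serpina3g and -5.59 for Serpina3c. Fat cell genes gave -1.71 for Plin1, -0.85 for Pnpla2, -0.55 for Lipe, -0.53 for Pparg, 0.70 for Cebpa and 0.40 for Lpl. The value of Plin1 rests on few counts at day 0. Enzymes gave -2.48 for Aldh1a7, -2.96 for Enpp3, -2.68 for Daglb, -1.79 for Xdh, -1.97 for Rnf19b and 0.74 for Hsd17b7. Precursor, matrix and membrane genes gave -3.26 for Aif1l, -1.56 for Col6a1, -1.10 for Dlk1, 2.14 for Rspo2, 1.45 for Gas2, 1.34 for Mme, 1.33 for Slc1a3 and 1.09 for Nrp2.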

How the results depend on the processing

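The change over 6 days after IL-13 was called in 10580 to 11487 genes with total count or upper quartile scaling, DESeq2, no filter on low counts or a replicate block, in 10181 with the 8 IL-13 libraries alone, and in 10413 to 10658 when 1 library was left out. With the 2-fold change written into the test it was called in 4256 genes. In untreated cells the count was 10293 to 11580 under the same alternatives and 10434 to 10545 without 1 library. The difference between the courses was called in 968 to 1212 genes with another scaling, DESeq2 or no filter, in 836 to 1269 without 1 library (1269 without replicate 3 of day 6 after IL-13), in 85 with the 2-fold change in the test, and in 1608 with a replicate block. The share of positive differences was 9.41% with the 2-fold change in the test, 38.5% with the block and 37.5% to 55.3% without 1 library. Changes of at least 2-fold numbered 5159 to 5257 without 1 library, and differences of at least 2-fold 242 to 286.

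Whether the replicate numbers pair the samples was not settled. After IL-13, residuals of same-numbered libraries of day 0 and day 6 had correlations of 0.37, -0.05, 0.50 and -0.08 over 9178 genes. Of these libraries, 3 of 8 correlated best with their own number. The same check gave 0.33, 0.23, 0.47 and -0.14 for untreated day 0 and day 6 (5 of 8). For IL-13 and untreated it gave 0.36, -0.20, 0.53 and 0.26 at day 0 (6 of 8), and 0.43, 0.097, 0.47 and 0.41 at day 6 (5 of 8). Replicates 1 and 3 correlated positively with their own number in every comparison (0.33 to 0.43 and 0.47 to 0.53). Replicates 2 and 4 changed sign between comparisons. The main fit left out any such shared structure, and the replicate block gave 1608 called differences between the courses instead of 1061. Of 3133 values for 209 genes under the alternatives, 3088 kept their direction and their side of the threshold, 31 lost and 11 gained a call (mt-Co3 and Mir6236), and 3 turned. The last were all of Acta1, not called at -0.12, which gave 0.02 without replicate 3 of day 0, 0.10 without replicate 1 of day 6 and 0.03 without replicate 2 of day 6, all after IL-13 (range -0.29 to 0.10 without 1 library). With 1 GENCODE transcript length per gene, an alternative chosen after seeing the data, the 10 highest genes took 9.39% of the TPM at day 0 instead of 12.4%, and the 100 highest took 35.2% at day 0 and 35.1% at day 6 instead of 37.8%. At these depths a gene with no count in 4 libraries may still hold up to 3 counts, so folds against such groups are bounds, and intervals and bounds cover counting error only.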

Other observations

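Clock genes were changed in a mixed pattern after IL-13. Of 19 tested, 13 rose and 6 fell, with a median log2 fold change of 0.68. Npas2, a partner of the clock factor Arntl, rose from 0.20004 ± 0.0912 to 9.67 ± 1.56 CPM, the repressor Cry1 from 18.3 ± 0.898 to 48.9 ± 3.05 CPM and Per1 from 18.3 ± 0.749 to 41.2 ± 4.12 CPM. The output factor Dbp fell from 31.3 ± 3.58 to 16.5 ± 2.33 CPM and the heme receptor Nr1d2 from 60.2 ± 4.2001 to 31.4 ± 3.71 CPM. Nfil3, a repressor of the same promoter element as Dbp, fell from 40.6 ± 1.84 to 32.6 ± 1.12 CPM after IL-13 and rose from 13.6 ± 1.29 to 31.5 ± 3.58 CPM without it, a difference of -1.52 ± 0.11 (edgeR adjusted p = 6.2e-09). Hlf, a relative of Dbp, began at 8.83 ± 1.88 CPM after IL-13 and at 0.441 ± 0.149 CPM without it, and reached 44.4 ± 5.29 and 46.1 ± 8.84 CPM.

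Of 18 chemokine and inflammation genes tested, 10 fell and 6 rose. Cxcl12, the attractant of CXCR4-bearing cells, fell from 4140.4 ± 106 to 329 ± 16.8 CPM, and the monocyte attractants fell too, Ccl2 to 0.995 ± 0.294 CPM from 74.9 ± 5.54 CPM and Ccl7 to 1.24 ± 0.0994 CPM from 199 ± 4.09 CPM. Of 25 interferon response genes, 12 rose, a share near the 40.6% of all genes tested, 6 fell and 7 did not pass. The antigen-presenting H2-K1 rose from 39.2 ± 1.88 to 182 ± 18.7 CPM. The guanylate binding gene Gbp2 rose from 3.801 ± 0.549 to 30.7 ± 4.83 CPM, while Ifit2 fell from 39.9 ± 2.63 to 14.4 ± 1.55 CPM. The difference from untreated cells was called in 6 of the 25, all positive, against 3.12% positive and 4.95% negative over all genes tested.

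Antioxidant enzymes rose in 21 of 34 tested cases and fell in 8. The mitochondrial superoxide dismutase Sod2 rose from 55.5 ± 0.843 to 428 ± 15.004 CPM, catalase, Cat, from 99.4 ± 1.09 to 653 ± 37.4 CPM and Mgst1 from 80.6 ± 5.74 to 1137 ± 79.2 CPM, and the glutathione peroxidases Gpx1 and Gpx7 fell by 1.89 and 2.26 on the log2 scale. Of 25 stress genes of the endoplasmic reticulum and of amino acid supply, 14 rose and 10 fell. The chaperone Calr fell from 1919.6 ± 107 to 589 ± 38.9 CPM and Pdia3, which forms disulfide bonds, from 1102 ± 28.3 to 322 ± 12.1 CPM. Atf4 rose from 166 ± 9.38 to 399.7 ± 13.02 CPM and the asparagine synthetase Asns from 197 ± 13.8 to 479 ± 16.3 CPM, while Hspa5 did not pass at 848 ± 24.5 and 807 ± 58.6 CPM.

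Among gene families taken by symbol, 19 of 22 tested Serpin genes fell and 1 rose, with a median log2 fold change of -2.64. In untreated cells the median of these Serpin genes was -0.98. Their difference between the courses was called negative in 11 and positive in 1, against 4.95% and 3.12% of all genes tested. In the Adamts protease family, 11 of 15 genes fell and 3 rose. Of 20 Cyp genes 14 rose and 6 fell, and of 196 solute carriers 94 rose and 78 fell. In the list of RNAs held in the nucleus, which was chosen from earlier results of these libraries, 12 of 24 tested rose, 4 fell and 8 did not pass. Malat1 lay at 51.7, 44.2, 30.1 and 54.2 CPM at day 0 and 177, 109, 73.9 and 91.1 CPM at day 6, and Neat1 at 15.03, 13.8, 10.4 and 15.8 and 43.3, 30.6, 19.6 and 29.02 CPM, with wide spread at day 6. The call of Neat1 was lost without replicate 3 of day 0 or replicate 1 of day 6.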
